A study of Homo sapiens with 32 samples.

Results

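The genes described here are the 9 that write, maintain and remove DNA methylation in human cells: the methyltransferases DNMT1, DNMT3A and DNMT3B, their partners DNMT3L and UHRF1, the dioxygenases TET1, TET2 and TET3, and the glycosylase TDG. They were taken by symbol from the deposited count table, where each stood once among 61541 genes, and all 9 had enough counts to be tested in every comparison. Polyadenylated RNA was sequenced from cultures of NTera2, which comes from an embryonal carcinoma, and of TCam-2, which comes from a seminoma, after 48 h with vehicle (D-PBS), RANKL, OPG or denosumab. RANKL activates RANK on the surface of cells. OPG, a soluble decoy receptor, and denosumab, a therapeutic antibody, both bind RANKL. RANKL and OPG were given at 1 µg/ml. Denosumab stands in the labels of its libraries, but the treatment protocol names RANKL again in its place, so its dose was not taken from there. There were 8 groups of 4 libraries, the 4 coming from separate experiments, and n is 4 unless another number is given. The labels tie replicates 1 to 4 to passages 27, 29, 30 and 31 of NTera2 and 118, 120, 121 and 122 of TCam-2, so the 4 treatments of a replicate share a passage. Both lines were grown with serum but in different media, and each tumour type is represented by 1 line, so line, tumour type and medium cannot be told apart. The question of the study was how RANKL and its inhibitors act on the 2 lines, and the comparisons below give the effect of treatment, of line and of passage on the 9 genes.

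DNA methylation in mammals is a methyl group on the cytosine of CpG dinucleotides. DNMT3A and DNMT3B place it on unmethylated DNA, with DNMT3L as a partner that has no activity of its own, and DNMT1, brought to newly replicated DNA by UHRF1, copies it to the daughter strand. TET1, TET2 and TET3 oxidise 5-methylcytosine, and TDG excises the most oxidised forms so that base excision repair can restore cytosine. Embryonal carcinoma resembles the early epiblast and carries a methylated genome, while seminoma resembles primordial germ cells, which pass through a stage with little DNA methylation. Only mRNA was measured here, and DNA methylation was not.

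In GRCh38, the genes lie on chromosome 19 (DNMT1, 10133342 to 10231286, and UHRF1, 4903080 to 4962154), chromosome 2 (DNMT3A, 25227855 to 25342590, and TET3, 73984910 to 74108176), chromosome 20 (DNMT3B, 32762385 to 32809356), chromosome 21 (DNMT3L, 44246339 to 44261897), chromosome 10 (TET1, 68560337 to 68694487), chromosome 4 (TET2, 105145875 to 105279816) and chromosome 12 (TDG, 103965822 to 103987192). RefSeq held promoter windows for 8 of the 9 genes (all but DNMT3L), 19 windows in all, on GRCh38.p14. The 250 bases upstream of 1 RefSeq start are shown for the 3 genes that differed most between the lines among those with a window, and for UHRF1. The TET1 and TET2 windows shown end at the gene start of the deposited table. Those of DNMT3B and UHRF1 belong to starts at 32779852 and 4909501, which lie inside the table's genes, so they are not the sequence before the first base of the gene. In the first 3, capitals mark CpG, the dinucleotide these enzymes act on, 5′ to 3′ on the strand of the gene.
DNMT3B, chr20:32779602-32779851, plus strand: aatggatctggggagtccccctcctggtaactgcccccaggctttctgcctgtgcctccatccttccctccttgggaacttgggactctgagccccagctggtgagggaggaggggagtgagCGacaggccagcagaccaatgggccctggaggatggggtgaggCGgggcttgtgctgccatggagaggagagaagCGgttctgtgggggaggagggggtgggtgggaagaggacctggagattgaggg
TET2, chr4:105145625-105145874, plus strand: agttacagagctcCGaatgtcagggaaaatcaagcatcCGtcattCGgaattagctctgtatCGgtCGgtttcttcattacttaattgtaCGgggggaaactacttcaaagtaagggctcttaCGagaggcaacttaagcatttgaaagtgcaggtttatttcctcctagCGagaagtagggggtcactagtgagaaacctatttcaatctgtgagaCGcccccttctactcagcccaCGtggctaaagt
TET1, chr10:68560087-68560336, plus strand: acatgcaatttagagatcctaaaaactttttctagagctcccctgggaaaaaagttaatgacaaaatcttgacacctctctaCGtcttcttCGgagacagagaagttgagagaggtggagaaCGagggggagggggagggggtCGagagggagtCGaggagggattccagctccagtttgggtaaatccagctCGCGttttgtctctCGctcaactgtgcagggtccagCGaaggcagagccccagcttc
The window at this internal DNMT3B start held 3 CpG, at the 22.9 percentile of 35116 windows of the same length, whose median was 11. The TET2 window at the start of the gene held 10 and a further TET2 window 34. The 3 TET1 windows held 9, 4 and 11. The 3 UHRF1 windows were denser, with 28, 32 and 41 CpG. An E2F word, the letters TTTCCCGC, TTTCGCGC, TTTGCCGC or TTTGGCGC on either strand, was found in 2 of the 3 UHRF1 windows and in no window of the other 7 genes, against 2.79% of all windows. E2F factors drive genes of DNA replication, and the word nearest the start is in capitals here.
UHRF1, chr19:4909251-4909500, plus strand: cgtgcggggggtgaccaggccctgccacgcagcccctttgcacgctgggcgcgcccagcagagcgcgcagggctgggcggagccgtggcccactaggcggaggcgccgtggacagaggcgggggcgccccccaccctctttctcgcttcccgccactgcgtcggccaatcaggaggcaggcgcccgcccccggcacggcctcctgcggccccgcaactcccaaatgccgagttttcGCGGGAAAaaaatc
A match is a description of these letters and not a binding site.

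Levels are given as CPM, read counts brought to a common library size over all 32 libraries. An NTera2 library held 11385500 to 30499538 counts and a TCam-2 library 10585247 to 20257935. RNA integrity (RIN, from the labels) was 8.3 or higher, except for TCam-2 RANKL replicates 2 and 4 at 6.1 and 3.7, and NTera2 vehicle replicate 1 had none. The libraries matched their labelled line: the embryonal carcinoma gene SOX2 stood at 270 CPM in NTera2 and 2.46 in TCam-2, and the seminoma gene SOX17 at 0.0521 and 155. Of 6 immune markers, the summed level stayed between 0.692 and 3.83 CPM in both lines, with PTPRC listed at 0 in NTera2 and CD3E in TCam-2. The summed level of 7 fibroblast markers was 315 to 405 CPM in NTera2 and 261 to 334 in TCam-2. Most of it came from 1 gene in each line, THY1 (292 CPM) in NTera2 and COL1A2 (269) in TCam-2. Of the 7, 3 reached 1 CPM in NTera2 and 5 in TCam-2. DCN stood at 0.00341 and 0.00487 CPM and LUM at 0.0553 and 0.263. The part of these markers in the results was not tested. In RNA from whole cultures, fewer cells of a type and less RNA per cell cannot be told apart.

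DNMT3B and DNMT3L, of the de novo group, differed most between the lines, and DNMT3A, of the same group, was the 1 gene that did not pass. Under vehicle, DNMT3B, the main de novo methyltransferase of the early embryo, stood at 1104, 1149, 999 and 953 CPM in the 4 NTera2 libraries and at 69.4, 59.2, 63.3 and 59.8 in the TCam-2 libraries. The groups were far apart, and the fitted difference was 16.5-fold lower in TCam-2 (log2 fold change −4.05, SE 0.0814, edgeR adjusted p = 2.39e-16). DNMT3L, the catalytically inactive partner, went the other way, from 0.71, 1.22, 0.786 and 0.295 CPM in NTera2 to 36.5, 49.8, 61.6 and 69.1 in TCam-2. It was 73.2-fold higher (log2 fold change 6.19, SE 0.274, edgeR adjusted p = 3.29e-12). The NTera2 values rest on 5 to 19 counts a library. DNMT3A, the other de novo enzyme, stood at 142, 148, 138 and 131 CPM in NTera2 and at 145, 145, 151 and 155 in TCam-2. Its groups overlapped and it did not pass the test (log2 fold change 0.11, 95% interval −0.03 to 0.26, edgeR adjusted p = 0.142). The sign of its difference turned when libraries were scaled by their size alone (−0.049).

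The maintenance pair was lower in TCam-2, by less than the median absolute log2 fold change of all genes under vehicle, 0.843. DNMT1 stood at 390, 423, 402 and 398 CPM in NTera2 vehicle and at 257, 240, 250 and 256 in TCam-2, without overlap, a difference of 1.59-fold (log2 fold change −0.67, SE 0.0588, edgeR adjusted p = 2.39e-08). S1PR2 overlaps DNMT1 on the same strand, but its counts over all libraries of a line were 2651 in NTera2 and 354 in TCam-2, against 101801 and 58577 for DNMT1. UHRF1 stood at 53.5, 61.7, 49.3 and 64.7 CPM in NTera2 and at 33.4, 35.8, 25.1 and 34.2 in TCam-2, 1.76-fold lower (log2 fold change −0.82, SE 0.123, edgeR adjusted p = 1.44e-05).

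The oxidising enzymes were higher in TCam-2, each by a different amount. TET2 and TET1 differed by more than the median absolute log2 fold change of all genes, 0.843, and TET3 by less. TET2 stood at 7.37, 8.11, 10.9 and 7.33 CPM in NTera2 vehicle and at 93.3, 82.3, 128 and 71.8 in TCam-2, which was 11.3-fold higher (log2 fold change 3.50, SE 0.172, edgeR adjusted p = 1.24e-11). TET1 stood at 37.6, 34.6, 34.4 and 32.4 CPM in NTera2 and at 94.9, 72.3, 105 and 54.7 in TCam-2, 2.38-fold higher (log2 fold change 1.25, SE 0.15, edgeR adjusted p = 1.1e-06). For both genes every TCam-2 library lay above every NTera2 library. TET3 was at 57, 62, 59.2 and 58.1 CPM in NTera2 and at 77.2, 71.8, 83 and 54.2 in TCam-2, with 1 TCam-2 library, replicate 4, below all of NTera2. Its difference of 1.22-fold passed narrowly (log2 fold change 0.29, SE 0.109, edgeR adjusted p = 0.0226), and it did not pass without NTera2 vehicle replicate 1 or 4 or without TCam-2 vehicle replicate 1, 2 or 3 (adjusted p 0.0634 to 0.142) or with scaling by library size alone (0.13, adjusted p = 0.304). TDG, which completes removal, was lower in TCam-2, at 58.1, 44.8, 46.1 and 45.1 CPM against 69.7, 65, 74.9 and 66, or 1.40-fold (log2 fold change −0.49, SE 0.0977, edgeR adjusted p = 0.000245). Its processed copy TDGP1 held 79 counts in NTera2 and 50 in TCam-2, against 17703 and 12414 for TDG.

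**Figure D1:**
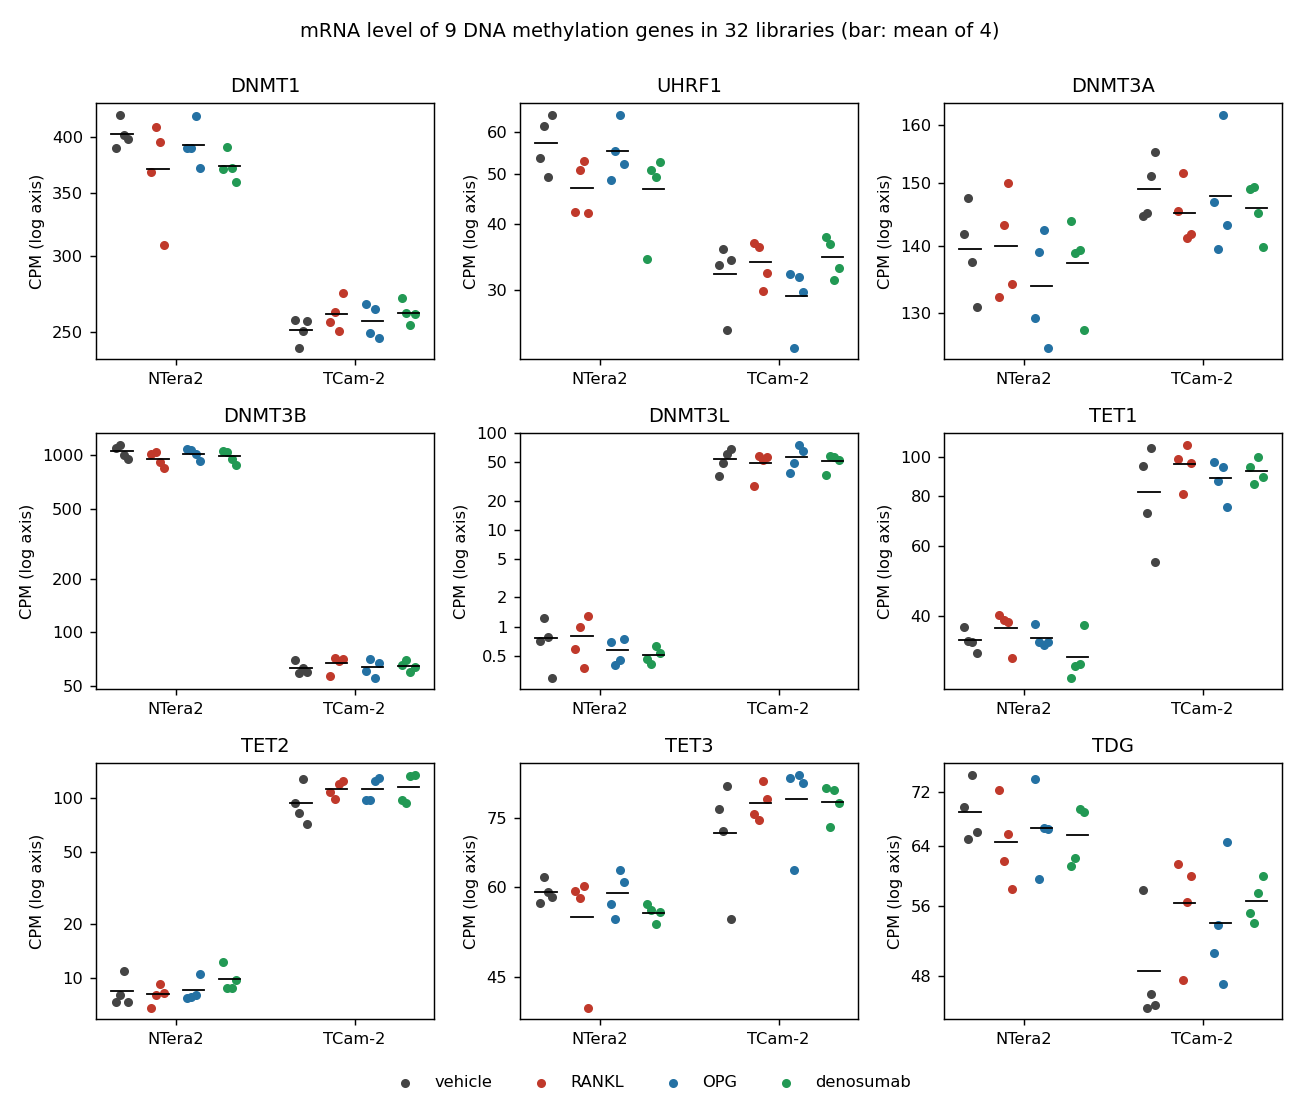
CPM on a log axis of each of the 9 genes in all 32 libraries, by line and treatment, with 1 point a library and a bar at the mean of 4. DNMT3B and DNMT3L lie apart between the lines in opposite directions, TET1 and TET2 are higher in every TCam-2 library, and the DNMT3A values of the 2 lines overlap.

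In all, 8 of the 9 genes passed under vehicle, 4 higher and 4 lower in TCam-2, beside 76.2% of the 16816 genes tested (37.4% higher, 38.8% lower), so the count alone is not a result about these genes. The libraries of the other treatments gave the same 8 genes with the same signs, with DNMT3A in none: 8 of 9 beside 74.3% of genes with RANKL (4 higher beside 37.5%, 4 lower beside 36.9%), 8 of 9 beside 76.2% with OPG (4 higher beside 36.8%, 4 lower beside 39.4%) and 8 of 9 beside 79.7% with denosumab (4 higher beside 39.6%, 4 lower beside 40.1%). The log2 fold change lay between −4.05 and −3.86 for DNMT3B, between 5.98 and 6.61 for DNMT3L, between 3.48 and 3.78 for TET2 and between 1.25 and 1.5 for TET1. DNMT1 lay between −0.67 and −0.53, UHRF1 between −0.94 and −0.48, TET3 between 0.29 and 0.51 and TDG between −0.49 and −0.22. Over all genes the median absolute log2 fold change was 0.843 with vehicle, 0.838 with RANKL, 0.858 with OPG and 0.843 with denosumab. DNMT1, UHRF1, TET3 and TDG differed by less than this in each set, except UHRF1 with OPG. These 4 comparisons use other libraries of the same passages. The smallest was that of TDG with RANKL (−0.22, SE 0.0949, edgeR adjusted p = 0.0444), where the lines overlapped. It did not pass without the 2 low-RIN libraries (−0.16, adjusted p = 0.199), nor without NTera2 RANKL replicate 1, TCam-2 RANKL replicate 2 or TCam-2 RANKL replicate 3 alone (adjusted p 0.0973, 0.169 and 0.0653). The lines also overlapped for UHRF1 with denosumab and for TDG with OPG. Over all 32 libraries, DNMT1, DNMT3B, DNMT3L, TET1 and TET2 separated the lines without overlap. The share of all genes that did so was not counted, so this is a description of these genes only.

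**Figure D2:**
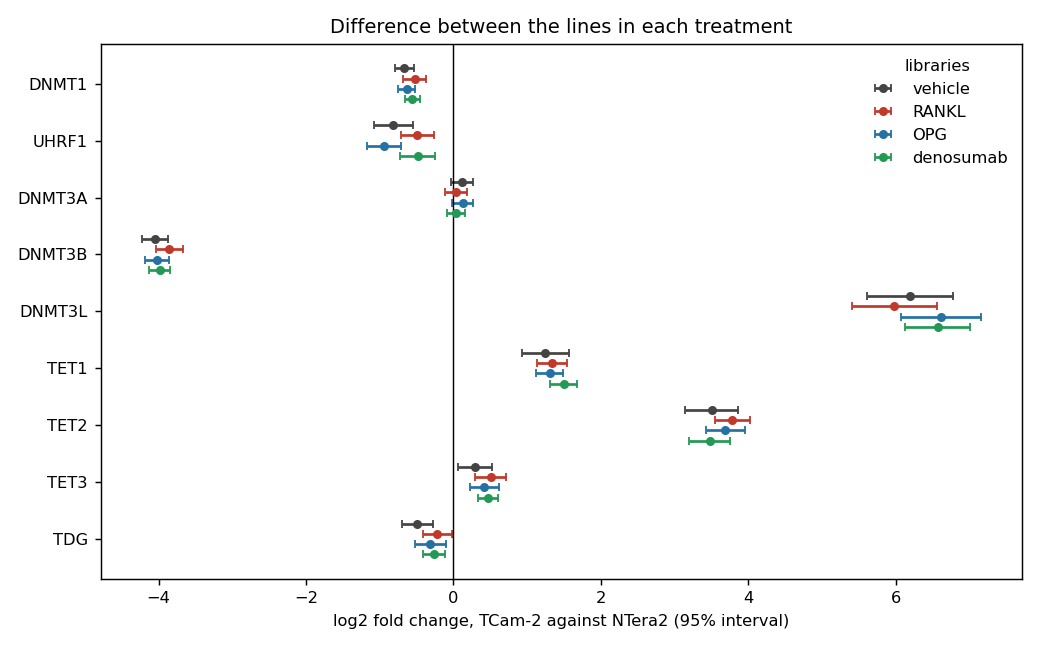
Log2 fold change of TCam-2 against NTera2 for each gene in the libraries of each treatment, with 95% intervals and a line at 0. DNMT3B lies near −4 and DNMT3L near 6 in all 4 sets, and only the DNMT3A intervals cross 0 in every set.

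To compare genes with each other, CPM was divided by the gene length in the deposited table. On this scale of CPM per kb, DNMT3B led all 9 genes in NTera2 at 217 ± 18.3 (SD, n = 16), and DNMT3L led in TCam-2 at 28.5 ± 6.92. DNMT1 followed in both, at 25 ± 1.80 in NTera2 and 16.7 ± 0.601 in TCam-2. Its table length of 15379 bases is far above the 5408 of its longest coding transcript, and per kb of the longest coding transcript DNMT1 led DNMT3L in TCam-2 (47.6 ± 1.71 against 31.0 ± 7.54). DNMT3L and TET2 were the lowest in NTera2, at 0.355 ± 0.158 and 0.532 ± 0.0898 CPM per kb. In TCam-2, DNMT3B (13.9 ± 1.17), TDG (11.0 ± 1.30), DNMT3A (10.7 ± 0.434) and TET1 (9.32 ± 1.42) came next, and TDG and DNMT3A differed by less than their SDs. Per kb of the longest coding transcript this order turned, with TDG at 16.6 ± 1.95, DNMT3A at 15.5 ± 0.629 and DNMT3B at 14.9 ± 1.25, and TET2 (10.6 ± 1.88) above TET1 (9.64 ± 1.47). In NTera2, TDG stood at 13.6 ± 1.03 per kb of table length, and DNMT3A (9.99 ± 0.527) and UHRF1 (10.0 ± 1.56) differed by less than their SDs. Per kb of transcript, DNMT3A (14.5 ± 0.764) was above UHRF1 (12.0 ± 1.86).

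The make-up of each family differed between the lines. Of the summed CPM per kb of the 3 DNMT3 genes, DNMT3B made up 95.4% ± 0.367 (SD, n = 16) in NTera2 and DNMT3A 4.42% ± 0.345. In TCam-2 the share of DNMT3L was 52.9% ± 6.39, that of DNMT3B 26.7% ± 3.97 and that of DNMT3A 20.4% ± 2.86. With the transcript length DNMT3A and DNMT3B stood level there, at 25.6% ± 3.33 and 24.6% ± 3.51. The family sum fell from 227 ± 18.6 CPM per kb in NTera2 to 53.1 ± 7.15 in TCam-2. Of the 3 TET genes, TET3 (51.5% ± 2.60) and TET1 (42.2% ± 3.00) made up most in NTera2, and TET2 only 6.27% ± 1.19. In TCam-2 the TET family sum was higher, 21.8 ± 2.86 CPM per kb against 8.54 ± 0.618, and TET1 held 42.6% ± 2.82, TET2 29.9% ± 2.75 and TET3 27.4% ± 1.79. With the length of the longest coding transcript, TET2 led TET1 in TCam-2 (39.1% against 35.7%), so their order depends on the length used.

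**Figure D3:**
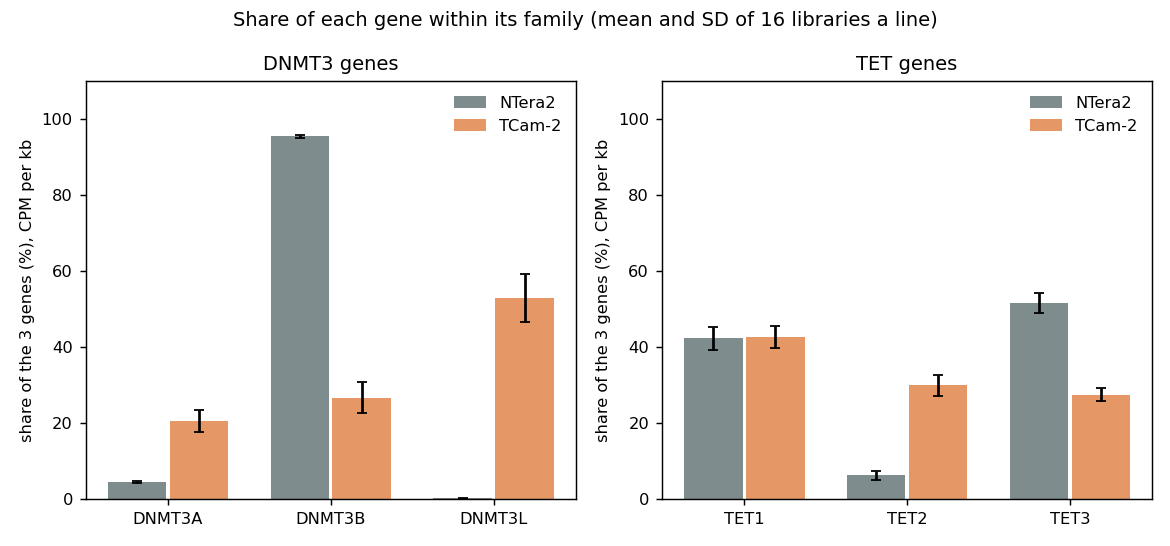
Share in percent of each gene in the summed CPM per kb of its family, as mean and SD of 16 libraries a line, with axes from 0. DNMT3B takes nearly all of the DNMT3 sum in NTera2 and DNMT3L 52.9% in TCam-2, and the TET2 share is 6.27% and 29.9%.

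The genes around these enzymes were read from 11 lists of 117 genes, of which 92 could be tested under vehicle. In all, 31 were higher and 35 lower in TCam-2, and a list is described by its counts beside the 76.2% of all genes. Of 8 partners of maintenance 2 were higher and 3 lower. UHRF2, the paralogue of UHRF1, was higher (29.8 ± 2.72 against 200 ± 43.5 CPM, log2 fold change 2.76), and DPPA3, which can keep UHRF1 from chromatin, was lower (26.0 ± 1.79 against 0.505 ± 0.221 CPM, −5.62). Of 8 genes that direct de novo methylation 3 were higher and 4 lower. The H3K36 methyltransferases went opposite ways, NSD1 higher (log2 fold change 1.51) and NSD2 lower (−1.13), and the H3K9 methyltransferase EHMT2 was lower (−1.10). Of 8 readers of methylated CpG 4 were higher and 0 lower, among them MBD1 (1.01), with a list median of 0.33 beside −0.01 over all genes.

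Of 11 TET partners and enzymes of cofactor supply 1 was higher and 5 lower. IDH2, a mitochondrial source of the TET cofactor 2-oxoglutarate, was at 73.3 ± 4.02 CPM in NTera2 and 7.42 ± 1.08 in TCam-2 (log2 fold change −3.28), and CXXC5, a partner of TET2, was lower (−2.85). IDH3A was the 1 that was higher (1.36). Of 11 genes of base excision repair 3 were higher and 4 lower. The uracil glycosylase UNG was higher (0.63) and the endonuclease APEX1 and the glycosylase NEIL2 lower (−0.75 and −1.03). Of 15 tested genes of the methyl donor cycle 6 were higher and 6 lower. CBS, which draws homocysteine away from the cycle, was at 0.552 ± 0.213 CPM in NTera2 and 37.0 ± 6.33 in TCam-2 (6.07), SHMT2 was higher (0.98), and SHMT1 and MTHFD1 were lower (−0.90 and −1.10).

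Of 4 tested genes that protect imprints 2 were higher and 2 lower. TRIM28, the corepressor, was higher (493 ± 13.4 against 1601 ± 145 CPM, log2 fold change 1.72), CTCF was higher (0.30), and ZNF445, a zinc finger protein that recruits TRIM28 to imprints, and the H3K9 methyltransferase SETDB1 were lower (−1.5 and −0.33). Of 7 regulators of these enzymes 4 were higher and 2 lower. TFAP2C (20.3 ± 1.19 against 1419 ± 87.8 CPM, 6.15) and PRDM1 (6.07), which specify germ cells, were higher, and the RNA-binding protein LIN28A and the transcription factor SP3 were lower (−2.13 and −0.66). Germline genes that are commonly silenced by promoter methylation were mostly too low to test: 4 of 17 passed the filter, of which TDRD12 of the piRNA pathway was higher (1.71) and 2 were lower. The 2 lower genes had a mean under 1 CPM in both lines. The split of this list turned with the libraries used, at 2 higher and 0 lower of 3 tested with RANKL and with denosumab and 1 higher and 3 lower of 4 with OPG. Of the X-linked cancer-testis genes 2 of 11 could be tested. XAGE2 and TKTL1, with 0 and 5 counts in NTera2 vehicle, passed the low-count filter only through TCam-2. Their direction was thus fixed by the filter and is a description only. XAGE2 had 0 counts in NTera2 vehicle and 42.0 ± 7.32 CPM in TCam-2, at least 890-fold higher against a floor of 3 counts over the group, and TKTL1 was higher (5.61). Of 14 genes of DNA replication and proliferation 3 were higher and 7 lower. MKI67 (0.64) and RRM2 (0.86) were higher and the helicase subunits MCM5 and MCM7 lower (−0.83 and −1.09). UHRF1 and DNMT1 are themselves genes of S phase, and the part of proliferation in their difference was not tested.

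None of the 9 genes passed the test with any treatment. Against vehicle, 0 of 9 passed with RANKL, with OPG and with denosumab in NTera2, and 0 of 9 with each in TCam-2. The background was 0% in each of these 6 comparisons, since edgeR called no gene of 17351 in NTera2 or 16621 in TCam-2. DESeq2 called none of the 9 either, and over all genes 0, 0 and 2 in NTera2 and 1, 7 and 0 in TCam-2 for RANKL, OPG and denosumab. With the passage as a block edgeR called 30 genes with denosumab in NTera2 and 2 in TCam-2, none of them among the 9. At an unadjusted p under 0.05, 1 of 9 stood beside 10.3% of all genes with RANKL, 0 of 9 beside 1.68% with OPG and 1 of 9 beside 7.25% with denosumab in NTera2. In TCam-2 it was 0 of 9 beside 8.92%, 8.68% and 6.56%. With the passage as a block more genes, in the set and beyond it, reached an unadjusted p under 0.05. In NTera2 these were DNMT1, DNMT3B and UHRF1 with RANKL (3 of 9 beside 16.3% of all genes), 0 of 9 beside 4.36% with OPG and UHRF1 with denosumab (1 of 9 beside 11.7%). In TCam-2 they were TET1 and TET2 with RANKL (2 of 9 beside 12%), TET2 with OPG (1 of 9 beside 10.8%) and TET2 with denosumab (1 of 9 beside 9.23%). Since the 3 comparisons of a line share its vehicle libraries, their values are not independent.

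The gene behind both NTera2 values without the block was UHRF1. Its level was 53.5, 61.7, 49.3 and 64.7 CPM with vehicle, 42.2, 50.9, 52.8 and 42.1 with RANKL, 48.7, 55.3, 64.8 and 52.1 with OPG and 34.3, 50.9, 49.3 and 52.5 with denosumab. The groups overlapped, with 3 of 4 libraries below the vehicle library of their passage in each treatment. The log2 fold change was −0.26 with RANKL (SE 0.112, edgeR adjusted p = 0.453), −0.27 with denosumab (SE 0.113, edgeR adjusted p = 0.605) and −0.04 with OPG (SE 0.112, edgeR adjusted p = 1). With the passage as a block the adjusted p was 0.142 and 0.171 for RANKL and denosumab. DNMT1 and DNMT3B were below the vehicle library of their passage in 4 of 4 pairs with RANKL and with denosumab in NTera2, by small amounts. The share of all genes with 4 of 4 pairs in 1 direction was not counted, in this line or in TCam-2. The DNMT3B values with RANKL were 1018, 1045, 915 and 844 CPM against 1104, 1149, 999 and 953, a log2 fold change of −0.11 (95% interval −0.25 to 0.03, edgeR adjusted p = 0.567, or 0.107 with the block). DNMT1 with RANKL was at −0.09 (interval −0.22 to 0.03). TET3 with denosumab, at 56.8, 55.7, 53.3 and 55.4 CPM, lay below all 4 vehicle libraries, which began at 57, but the difference was only −0.07 (interval −0.25 to 0.11, edgeR adjusted p = 0.914). Of the 54 comparisons of a gene with vehicle in both lines, it alone had groups without overlap. The share of all genes without overlap was not counted. TET2 with denosumab, at 12.3, 8.78, 8.86 and 9.73 CPM against 7.37, 8.11, 10.9 and 7.33, gave the highest estimate in NTera2, 0.27 (interval −0.07 to 0.60).

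In TCam-2 the TET2 estimates were positive with all 3 agents, at 0.22 with RANKL, 0.23 with OPG and 0.24 with denosumab (edgeR adjusted p 0.599, 0.649 and 0.741). They share the vehicle libraries, of which replicate 4 had the lowest TET2 of the line, 71.8 CPM. TET2 with denosumab, at 97, 93.6, 131 and 135 CPM, lay above the vehicle library of its passage in 4 of 4 pairs, and the groups overlapped. TDG with RANKL, at 61.5, 47.6, 56.5 and 59.9 CPM against 58.1, 44.8, 46.1 and 45.1, was higher in 4 of 4 pairs, with an estimate of 0.17 (interval −0.04 to 0.39, edgeR adjusted p = 0.584). TDG with denosumab gave 0.18 (interval −0.04 to 0.39). TET1 with RANKL was higher in 4 of 4 pairs (0.19, interval −0.07 to 0.45). DNMT1 with denosumab was also higher in 4 of 4 pairs, at a mean of 262 CPM against 251 with vehicle, and the groups overlapped. Its direction was opposite to NTera2, but its interaction of line and denosumab did not reach an unadjusted p under 0.05 (edgeR). UHRF1 with OPG, at 32.2, 23.2, 31.7 and 29.7 CPM, gave −0.17 (interval −0.43 to 0.09). Without the 2 low-RIN libraries 0 of 9 genes passed in any TCam-2 comparison of a treatment with vehicle or of an inhibitor with RANKL.

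**Figure D4:**
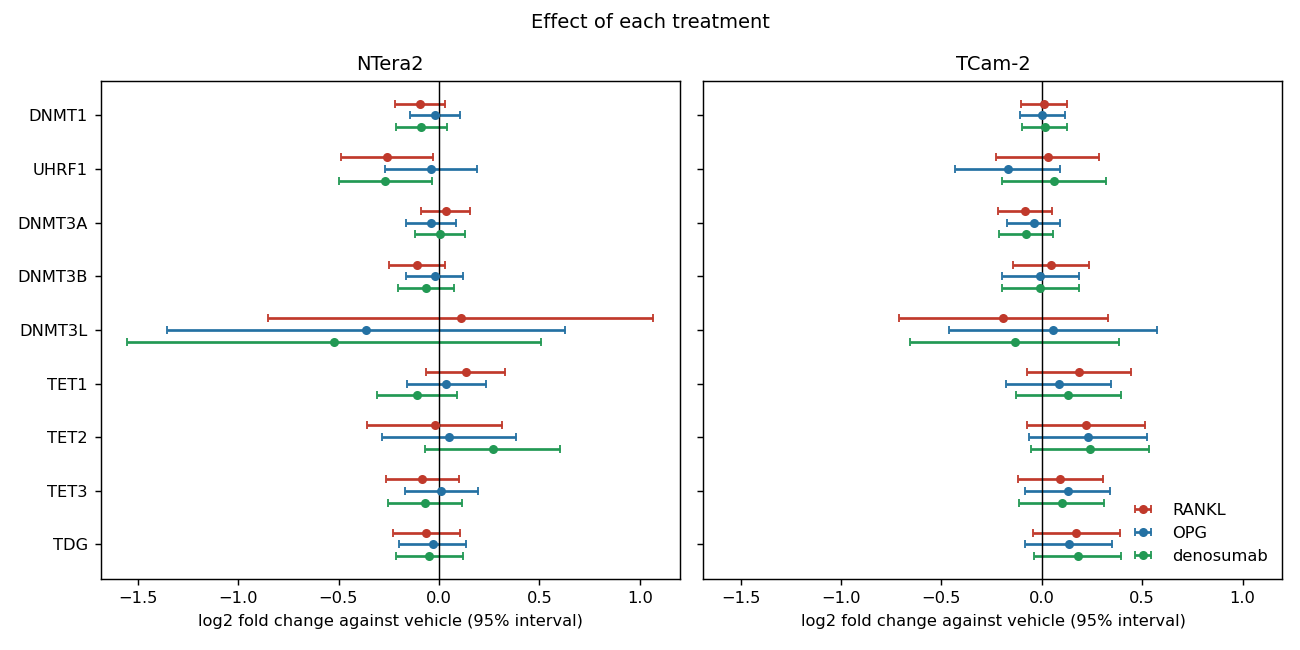
Log2 fold change of each treatment against vehicle for each gene, with 95% intervals, NTera2 left and TCam-2 right. The points lie close to 0, the DNMT3L intervals in NTera2 are the widest, and UHRF1 with RANKL and with denosumab in NTera2 has intervals that end below 0.

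A call that is missing does not show that a level stayed the same, so the intervals are given. For the 8 genes other than DNMT3L, all 95% intervals against vehicle of NTera2 ran from −0.50 to 0.60 on the log2 scale, and those of TCam-2 from −0.43 to 0.53. DNMT3L, with few counts in NTera2, was bounded only between −1.55 and 1.07 there, and between −0.71 and 0.57 in TCam-2. The direct comparisons of an inhibitor with RANKL gave 0 of 9 called beside 0% in all 4. At an unadjusted p under 0.05 they gave 0 of 9 beside 5.01% for OPG and 1 of 9 beside 4.36% for denosumab in NTera2, and 0 of 9 beside 5.14% and 0.933% in TCam-2. The 1 gene was TET1, at 28.0, 29.9, 30.3 and 38 CPM with denosumab and 40.2, 39.0, 38.6 and 31.3 with RANKL in NTera2 (log2 fold change −0.24, SE 0.0959, edgeR adjusted p = 1). Replicate 4 went against the other 3 in both groups. With the passage as a block, OPG against RANKL gave DNMT3B and UHRF1 in NTera2 (2 of 9 beside 8.05%) and DNMT3L in TCam-2 (1 of 9 beside 7.29%), and denosumab against RANKL gave TET1 in NTera2 (1 of 9 beside 6.29%) and 0 of 9 beside 1.37% in TCam-2.

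Whether a treatment acted differently in the 2 lines was tested by the interaction of line and treatment. For RANKL, OPG and denosumab 0 of 9 were called beside 0% of 19216 genes. At an unadjusted p under 0.05 there was 1 of 9 beside 5.22% for RANKL, 0 of 9 beside 5.2% for OPG and 1 of 9 beside 4.78% for denosumab. These were TDG with RANKL (difference of the log2 fold changes, TCam-2 minus NTera2, 0.28, SE 0.133, edgeR adjusted p = 0.944) and UHRF1 with denosumab (0.37, SE 0.176, edgeR adjusted p = 0.95). With the passage as a block there were 4 of 9 beside 6.78% for RANKL (DNMT1, DNMT3B, TDG and UHRF1), 0 of 9 beside 6.5% for OPG and 3 of 9 beside 6.64% for denosumab (TET1, TDG and UHRF1), and none passed after adjustment. No listed partner gene was called in any treatment, inhibitor or interaction comparison, of 91 tested in NTera2, 94 in TCam-2 and 98 in both. Without the low-count filter, 2 were called with denosumab in NTera2. At an unadjusted p under 0.05 there were 12 with RANKL, 1 with OPG and 3 with denosumab among the 91 in NTera2, and 13, 8 and 9 among the 94 in TCam-2, to be read beside the shares of all genes given above. The inhibitors against RANKL gave 3 and 1 in NTera2 and 4 and 1 in TCam-2 for OPG and denosumab. The interactions gave 4, 10 and 1 of 98 for RANKL, OPG and denosumab.

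Between the first and last passage, 1 gene differed in each line. Passage stands for an independent experiment too, so the number of passages and the experiment cannot be told apart. Each passage is 1 experiment, so the passage p-values of both lines measure the spread among its 4 libraries, not that between experiments. In NTera2, DNMT3B stood at 1104, 1018, 1079 and 1062 CPM at passage 27 under vehicle, RANKL, OPG and denosumab, at 1149, 1045, 1072 and 1050 at passage 29, at 999, 915, 1016 and 950 at passage 30 and at 953, 844, 924 and 886 at passage 31. Passage 31 was the lowest in 4 of 4 treatments, and the values of passages 27 and 31 did not overlap. The share of all genes with such an order or without overlap between passages was not counted, in this line or in TCam-2. With treatment as a covariate, passage 31 was lower than passage 27 by −0.24 on the log2 scale (SE 0.0324, edgeR adjusted p = 7.83e-05). It was the 1 of 9 called, beside 0.622% of genes (0.34% lower). UHRF1 gave 0.24 (SE 0.0886, edgeR adjusted p = 0.205), with 2 of 9 at an unadjusted p under 0.05 beside 14% of genes.

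In TCam-2, DNMT3L stood at 36.5, 28.5, 38.4 and 36.8 CPM at passage 118 under vehicle, RANKL, OPG and denosumab, at 49.8, 57.8, 49.4 and 57.6 at passage 120, at 61.6, 52.9, 76.2 and 57.2 at passage 121 and at 69.1, 57.1, 65.6 and 52.8 at passage 122. Passage 118 was the lowest in 4 of 4 treatments and did not overlap with any later passage, and the later 3 overlapped with each other. Passage 122 was higher than passage 118 by 0.83 on the log2 scale (SE 0.107, edgeR adjusted p = 0.000106). It was the 1 of 9 called, beside 1.35% of genes (0.68% higher). TET1 gave −0.29 (SE 0.0967, edgeR adjusted p = 0.182), and 2 of 9 had an unadjusted p under 0.05 beside 12.7% of genes. TET1 passed when no gene was filtered for low counts (−0.29, adjusted p = 0.0347). TET2 gave 0.22 (SE 0.106, edgeR adjusted p = 0.397) and passed without TCam-2 vehicle replicate 4 (0.39, adjusted p = 0.00265). Of the 94 listed partner genes tested in TCam-2, XAGE2 was higher at passage 122 (0.38) and UHRF2, PRDM1, CTCFL and IDH1 were lower (−0.42, −0.36, −1.79 and −0.21). Of the 91 tested in NTera2 none was called, with 13 at an unadjusted p under 0.05 and 3 called by DESeq2. Both called differences were far smaller than the difference of the same gene between the lines.

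**Figure D5:**
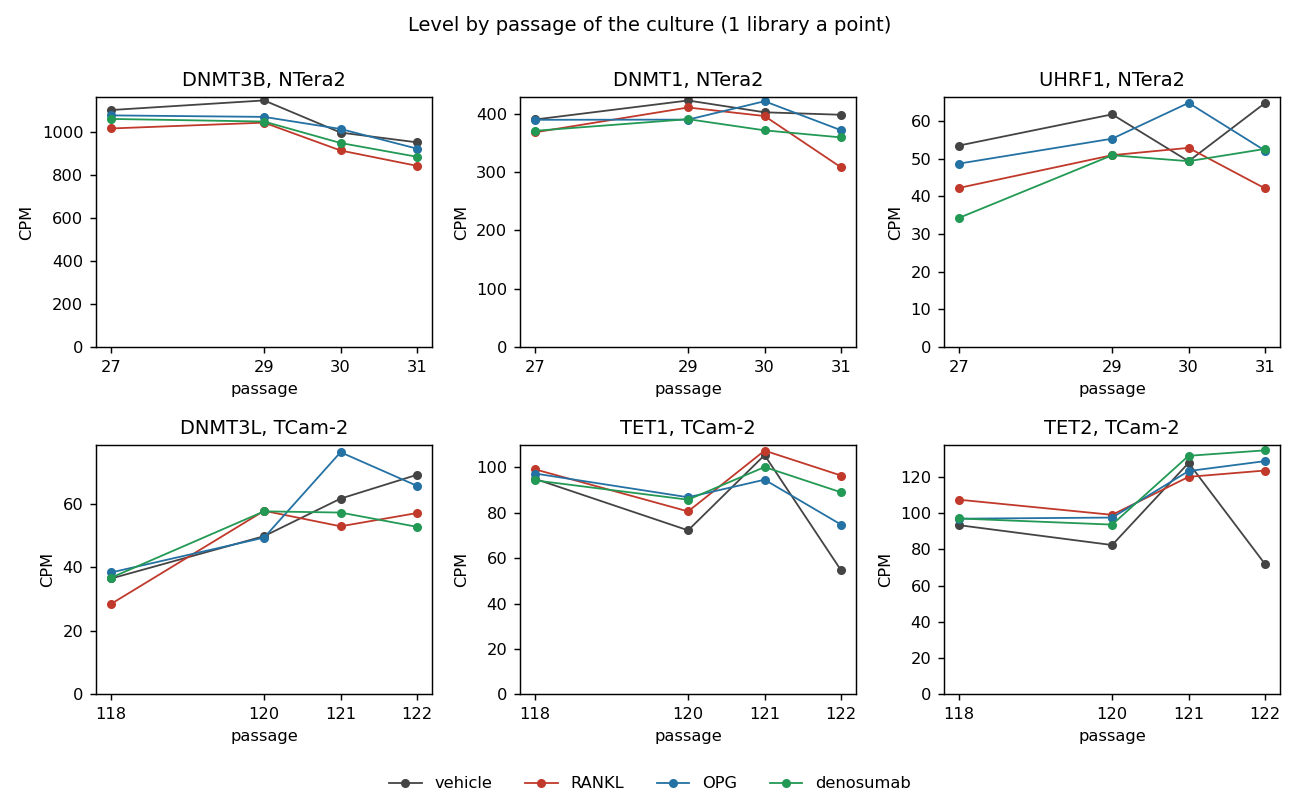
CPM by passage for 3 genes in NTera2 (top) and 3 in TCam-2 (bottom), with 1 library a point, 1 line a treatment and axes from 0. DNMT3B is lowest at passage 31 and DNMT3L at passage 118 in all 4 treatments, and the vehicle library of passage 122 is lowest for TET1 and TET2.

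Some of the genes varied together over the 16 libraries of a line, which share passages and treatments, so Pearson's r of log2 CPM is given as a description. In NTera2 the highest values were 0.849 for DNMT1 with TET3, 0.662 for DNMT1 with DNMT3B and 0.61 for DNMT1 with UHRF1. Without RANKL replicate 4, in which TET3 was 40.8 CPM and DNMT1 308, they were 0.552, 0.469 and 0.612. In TCam-2 the TET genes stood together, with 0.763 for TET1 with TET3, 0.729 for TET2 with TET3 and 0.642 for TET1 with TET2. These rested in part on vehicle replicate 4, which had TET1 at 54.7, TET2 at 71.8 and TET3 at 54.2 CPM, and without it they were 0.45, 0.558 and 0.399. In that library, genes of at least 9612 bases, the length of TET1, also lay below the mean of the vehicle group, by a median of −0.13 on the log2 scale against 0.03 for the shorter ones, and the part of this in the TET values was not tested. DNMT3A and TDG ran opposite in TCam-2 (−0.663). The gene most like each member among 9640 in NTera2 and 9332 in TCam-2 was PLXNA1 for UHRF1 (0.962), CACNA1B for DNMT1 (0.958) and NID1 for DNMT3B (0.933) in NTera2. In TCam-2 it was AHCYL2 for TET1 (0.964), UTRN for TET2 (0.958), KMT2C for TET3 (0.944), CENPE for TDG (0.931) and AQP3 for DNMT3L (0.918). Each is the highest of many values and is named for that reason only. They include NTera2 RANKL replicate 4 and TCam-2 vehicle replicate 4 and were not computed again without these libraries.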

How the data were processed

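RNA from 32 cultures was measured by polyadenylated RNA sequencing. Per the labels' protocols, libraries were stranded and sequenced from both ends. The authors used bcl2fastq 2.20.0, STAR 2.7.9a and featureCounts 1.6.2 with GRCh38 (per the submitters' processing notes), and the deposited values are raw counts of reads per gene. The deposited table gives gene positions and lengths as other columns, and the length was used for levels per kb. The annotation release and strand setting are not given in the sources used here, so overlapping and copied genes (S1PR2 with DNMT1, TDGP1 with TDG, DNMT3L-AS1 with DNMT3L) are uncertain. All 32 columns were matched to samples, with 0 left over. Any 2 libraries within a group had a chi-square per degree of freedom of 2.57 to 17.5, so none was a repeat of another. The experiments are labelled independent, and p-values of the line, treatment and interaction comparisons without a block measure the spread between them. Those of the passage comparisons measure the spread among the 4 libraries of an experiment. With the passage as a block, p-values measure the spread left once differences between experiments are taken out.

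All genes were fitted with edgeR 4.0.16 under R 4.3.3, by the robust quasi-likelihood F test after filterByExpr and TMM. P-values were adjusted over all genes tested (Benjamini-Hochberg), and a call needs an adjusted value below 0.05. The SE is the log2 fold change divided by the square root of F, and intervals are at 95%. Line comparisons used the 8 libraries of a treatment, treatment and passage comparisons the 16 of a line, and interactions all 32, in 19 comparisons. Lengths of the longest coding transcript (GENCODE), correlations without 1 library and the comparison of long with shorter genes were added after seeing the data. DESeq2 1.42.0, other scalings, no filter, the replicate block, fewer or more libraries in the fit, low-RIN libraries and each library left out were alternatives. On simulated counts, 86%, 94% and 92% of genes changed 1.5-fold were recovered for the line under vehicle, NTera2 RANKL and TCam-2 passage comparisons. For genes changed 2-fold it was 100% in each. Recovery was not measured for the genes described here, which differ in spread. Their SE for RANKL against vehicle in NTera2 was 0.0602 for DNMT3A, 0.163 for TET2 and 0.467 for DNMT3L. The shares therefore do not give the power for these genes or for the treatment comparisons without a call.

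Replicate numbers pair the libraries because the labels give each number its own passage. The correlation of deviations from the group means had medians of 0.398, 0.385, 0.0661 and 0.174 for numbers 1 to 4 in NTera2 against −0.127 for different numbers, and of 0.391, 0.0746, 0.228 and 0.0959 against −0.0663 in TCam-2. The members and lists were chosen with earlier results of these data known. All 9 members are named. From each of the 11 lists, up to 2 called genes a direction with the largest difference under vehicle and at least 1 CPM are named, elsewhere up to 3 called genes a direction, and for likeness the 1 gene of highest correlation at 10 CPM or more (prior count 2). IDH1 was named outside the rule. Some genes that the rule would name are not reported here.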

Additional observations from a re-analysis of the deposited data

Results flagged for a closer look

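In 6 of 72 groups of 4 libraries (9 genes in 8 groups) the highest or lowest library lay further from the nearest other, relative to the range of the group, than Dixon's 95% critical value for 4, where about 5% of groups would by chance. DNMT3L in TCam-2 RANKL replicate 1 was 28.5 CPM and the others 52.9 to 57.8, and this replicate is of passage 118, the lowest for DNMT3L in each treatment. TET1 in NTera2 OPG replicate 1 was 38.2 CPM (others 33.7 to 34.4). TET2 in NTera2 OPG replicate 4 was 10.6 CPM (others 7.71 to 8.09). TET3 in NTera2 RANKL replicate 4 was 40.8 CPM (others 58 to 60.2). TET3 in TCam-2 OPG replicate 2 was 63.5 CPM (others 83.9 to 86.2). TDG in TCam-2 vehicle replicate 1 was 58.1 CPM (others 44.8 to 46.1).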

How the results depend on the processing

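In the line comparisons DNMT1, DNMT3B, DNMT3L, TET1, TET2 and UHRF1 kept their sign and call under every alternative run, and so did DNMT3B in the NTera2 passage comparison (−0.25 to −0.22) and DNMT3L in that of TCam-2 (0.76 to 0.90). DNMT3A changed sign when scaled by library size alone (−0.049 with vehicle, −0.16 with RANKL where it then passed at an adjusted p of 0.0493, −0.0695 with OPG and −0.12 with denosumab), and in the RANKL libraries also with no filter (−0.0016) and without 1 library (−0.0308 without NTera2 RANKL replicate 1, −0.0261 without replicate 4, and up to 0.0421 without others). It passed with OPG when all 32 libraries were fitted (0.14, adjusted p = 0.0357). Scaling by library size alone moved the median of all genes from −0.01 to −0.17 with vehicle. Of the 9 genes 2 rather than 1 were called in the TCam-2 passage comparison with no low-count filter, and between 1 and 2 when a library was left out, with 2 only without TCam-2 vehicle replicate 4. Under no alternative was any of the 9 called in a treatment, inhibitor or interaction comparison; in the treatment and inhibitor comparisons 118 of 1303 estimates changed sign.

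Without the low-count filter, all-gene calls were 176 and 237 (0 in the main test) for RANKL and denosumab in NTera2, 51, 54 and 28 for RANKL, OPG and denosumab in TCam-2, 281 (108) for passage in NTera2, and at most 3 for the inhibitors against RANKL, with interactions at 1, 3 and 32. DESeq2 gave 288 (108) and 410 (224) for passage in NTera2 and TCam-2 and 2 for the RANKL interaction. Leaving out 1 library gave 48 to 208 calls for passage in NTera2 and 97 to 296 in TCam-2. Passage gave 63 in NTera2 without the treatment term and 117 in TCam-2 without the low-RIN libraries. Without NTera2 vehicle replicate 3, denosumab gave 29 in NTera2. Listed germline genes called under vehicle were 3, and 9 with no filter, 7 with all libraries and 5 to 6 without NTera2 vehicle replicate 2 or 3 or TCam-2 vehicle replicate 2. For denosumab in NTera2, 2 listed genes were called with no filter. For TCam-2 passage 5 listed genes were called, and 8 with DESeq2, 2 without the low-RIN libraries and 1 to 3 without TCam-2 vehicle replicate 1, RANKL replicate 1 or 4, or OPG replicate 1 or 4. The cause of these shifts was not tested. With the replicate block, denosumab gave 30 and 2 genes in NTera2 and TCam-2 and its interaction 1, and no call of the 9 genes changed, though more of them reached an unadjusted p under 0.05. Counts of 5 to 19 for DNMT3L in NTera2 limit its estimates there.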

Other observations

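With the libraries of the other treatments, the listed partner genes gave these counts between the lines: 36 higher and 35 lower of 91 with RANKL, 32 and 36 of 93 with OPG, and 40 and 33 of 91 with denosumab.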
